A study of Homo sapiens with 6 samples.

Results

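SNARE proteins of the endosome and lysosome were followed in A549 cells, a human lung adenocarcinoma line, after treatment with VP-16 (etoposide), which poisons topoisomerase II and so leaves double-strand breaks in DNA. The members were 10 genes listed by symbol, VAMP8, VAMP7, VAMP3, VAMP4, VAMP5, STX7, STX8, VTI1B, STX17 and SNAP29, of 18417 genes measured. All 10 were found through the annotation of the array's probe sets, and a gene with more than 1 probe set was read from the brightest by its mean of all 6 arrays. The list was built around VAMP8, which was selected on its log2 signal difference between the groups of these same arrays, so the differences of the members are given as a description and no test is read from them.

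The 6 samples were 3 arrays of stable A549 cells with the label H2AX knockdown (called P1) and 3 arrays of control stable A549 cells (called C). H2AX is a histone variant that is phosphorylated around DNA double-strand breaks. Cells of both groups had been starved of serum overnight and then kept in VP-16 for 48 h, so the comparison is made under the drug, and untreated cells were not analysed here. The samples of a group are independent experiments per the design text, and the labels do not say whether P1 and C are single clones or pools of cells. The values are log2 signals made with RMA, and the number of arrays limits the precision.

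SNARE proteins drive the fusion of membranes. An R-SNARE on one membrane, in most cases a VAMP protein, zips up with Q-SNAREs (syntaxins and SNAP-family proteins) on the other membrane into a bundle of helices that pulls the membranes together. VAMP8 with STX7, VTI1B and STX8 serves fusion among late endosomes, and VAMP8 with SNAP29 and STX17 serves fusion of autophagosomes with lysosomes. VAMP8 also acts in the release of secretory granules and is abundant in secretory epithelia and blood cells.

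The label of the groups was checked on H2AX itself. H2AX had log2 signals of 5.28, 5.17 and 5.49 in the knockdown-labelled arrays, against 5.11, 5.27 and 5.26 in control arrays. The ranges overlapped and the signal was not lower under the knockdown label, with a log2 difference of 0.10 (95% interval −0.25 to 0.45) and a limma adjusted p of 0.823. A 2-sided exact permutation test gave p = 0.4, and with 3 arrays in each group it cannot go below 0.1. Directions below are therefore those of arrays labelled H2AX knockdown against control arrays, and not of a measured loss of H2AX. Over all genes the arrays also differed with brightness: in 5 equal bins of genes by mean signal, the median log2 difference ran from 0.15 in the dimmest bin to −0.25 in the brightest. Knockdown-labelled replicate 1 and control replicate 1 lay at opposite ends of the first principal component, with scores of −42.63 and 31.68, and this component held 49.2% of the variance. Of epithelial markers, KRT8 read 9.44 to 10.04 over the arrays and CDH1 5.23 to 5.71, while EPCAM lay in the dimmest bin, with 2.28 to 2.72.

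VAMP8 was lower in the knockdown-labelled arrays. Its log2 signal (probe set 8043197, Entrez gene 8673) was 4.95, 4.79 and 4.86 in knockdown-labelled replicates 1, 2 and 3, against 6.39, 6.06 and 6.10 in control replicates 1, 2 and 3. The groups did not overlap, and a gap of 1.11 on the log2 scale lay between the highest knockdown-labelled and the lowest control array. The means were 4.86 ± 0.08 in knockdown-labelled and 6.18 ± 0.18 in control arrays (log2 signal, SD, n = 3 each), a log2 difference of −1.32 ± 0.16 (SE), which is a signal 2.49-fold lower. Only 5 of the 18417 genes had a difference farther from 0 in either direction, and among the 3684 genes of its own signal bin, the brightest, VAMP8 had the second lowest. The median difference in that bin was −0.25, which leaves VAMP8 1.06 below it. In the bulk RNA of a culture, fewer cells of a type and less RNA per cell cannot be told apart.

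Of the 10 members VAMP8 alone passed the threshold over all genes (limma, adjusted p under 0.05), which 0.0326% of all genes did. The share is given for scale, because this contrast was used to choose the list. With 1 array left out VAMP8 remained past the threshold only without knockdown-labelled replicate 3 (−1.31), and was no longer past it without knockdown-labelled replicate 1 (−1.36) or 2 (−1.28), or control replicate 1 (−1.21), 2 (−1.38) or 3 (−1.36). It was also not past it after quantile normalization (−1.14) or cyclic loess (−1.11), when every probe set was tested, or with replicate 1 of both groups left out (−1.25, limma adjusted p = 0.319).

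**Figure D1:**
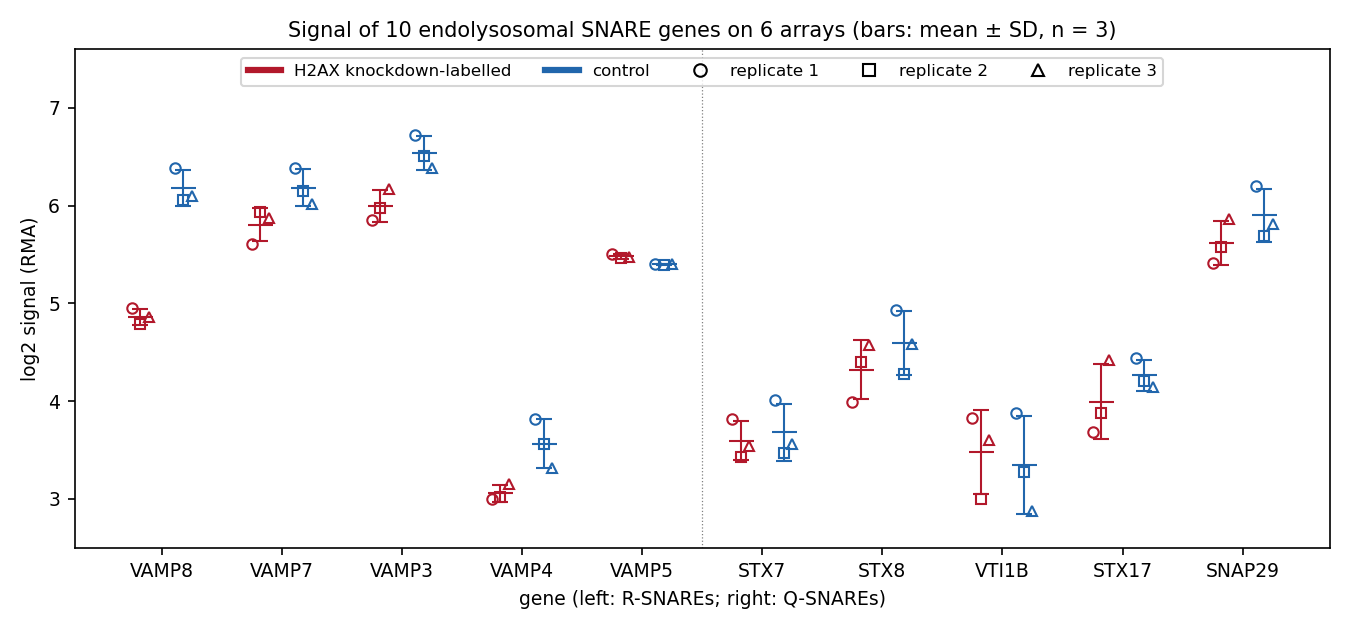
Log2 signal of the 10 SNARE genes (y axis) on each of 3 knockdown-labelled arrays (red, left of each pair) and 3 control arrays (blue, right); open symbols are arrays by replicate number, bars are the mean ± SD. VAMP8 shows the widest gap between the groups, 4.79 to 4.95 against 6.06 to 6.39, while the Q-SNARE genes on the right overlap.

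The gene next to VAMP8 on chromosome 2 is another member, VAMP5, with no annotated gene between them in RefSeq, which allows both starts to be set side by side. VAMP5 encodes myobrevin, a VAMP protein of the plasma membrane and vesicles known from skeletal muscle. The 250 bases before each annotated start are shown because VAMP8 read lower in the knockdown-labelled arrays and its neighbour VAMP5 did not. They come from RefSeq (GRCh38.p14, both on the plus strand), for VAMP8 chr2:85577336-85577585 and for VAMP5 chr2:85584181-85584430, with matches to the GC box (GGGCGG) and to a loose NF-kB pattern (GGGNNNNNCC) on either strand in capitals.
VAMP8: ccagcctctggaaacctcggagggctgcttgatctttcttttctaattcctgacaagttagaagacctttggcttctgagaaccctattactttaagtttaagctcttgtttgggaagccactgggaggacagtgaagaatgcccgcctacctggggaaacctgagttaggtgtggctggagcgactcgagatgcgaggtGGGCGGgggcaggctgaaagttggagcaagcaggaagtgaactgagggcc
VAMP5: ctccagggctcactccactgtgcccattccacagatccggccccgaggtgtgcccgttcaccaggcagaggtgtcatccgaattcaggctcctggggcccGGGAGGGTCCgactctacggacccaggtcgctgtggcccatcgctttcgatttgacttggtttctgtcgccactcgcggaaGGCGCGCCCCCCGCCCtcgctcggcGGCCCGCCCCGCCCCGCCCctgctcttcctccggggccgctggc
The VAMP8 window held 1 GC box and 0 matches to the NF-kB pattern. The VAMP5 window held 4 GC boxes and 3 matches to the NF-kB pattern, one of which overlaps GC boxes. Searched in the same way, neither window held the E-box CACGTG or the AP-1 pattern TGANTCA, both of which read the same on either strand. Of the 35116 windows in the table, 42.6% held a GC box, 54.4% the NF-kB pattern, 6.34% the E-box and 6.57% the AP-1 pattern. Windows were at hand for 9 of the 10 members, all but STX17: 6 held a GC box, 6 the NF-kB pattern, 1 (SNAP29) the E-box and 0 the AP-1 pattern. STX7 and VAMP7 had more than 1 window and were counted if any of them held a match, while the shares above are of windows.

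VAMP5 did not share the lower signal of VAMP8. Its log2 signal was 5.51, 5.46 and 5.47 in the knockdown-labelled arrays, against 5.40, 5.39 and 5.40 in control arrays. The arrays of a group were close together, with an SD of 0.02 in knockdown-labelled and 0.01 in control arrays, and all knockdown-labelled arrays lay just above all control arrays. The log2 difference was 0.08 ± 0.15 (SE), where the standard error is that of limma and leans on the spread of all genes. It was above 0 in each of 16 alternatives, from 0.03 to 0.28, though several of them leave the difference unchanged by construction. The groups of VAMP5 overlapped at the lower end of that range, where the median of each array was subtracted. They did not after quantile normalization or cyclic loess. The other alternatives could not make them overlap, because they keep the array values or leave arrays out.

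The other genes around VAMP8 held no call. Of the 5 measured genes on each side, VAMP5 included, 8 had a log2 difference below 0 and 2 above, from −0.36 to 0.08. In limma 0 passed the threshold, as 0.0326% of all genes did, the lowest adjusted p being 0.497. At unadjusted p under 0.05 there were 0, where 8.38% of all genes were lower and 3.78% higher. A count of 0 in 10 genes lies close to those shares. On the side before VAMP8, GGCX, the carboxylase that uses vitamin K, had a log2 difference of −0.19 ± 0.18 (SE). MAT2A, which makes S-adenosylmethionine, had one of −0.27 ± 0.20 (SE). CAPG, an actin-capping protein, had one of −0.09 ± 0.15 (SE). It was lower in the knockdown-labelled arrays without overlap, 4.555 to 4.65 against 4.67 to 4.79, as 9.82% of all genes were. SH2D6 was at −0.002 and ELMOD3 at −0.06. Beyond VAMP5, the ubiquitin ligase RNF181 had a log2 difference of −0.36 ± 0.21 (SE) and the splicing protein USP39 one of −0.34 ± 0.22 (SE). TMEM150A was at 0.01 and C2orf68 at −0.14.

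**Figure D2:**
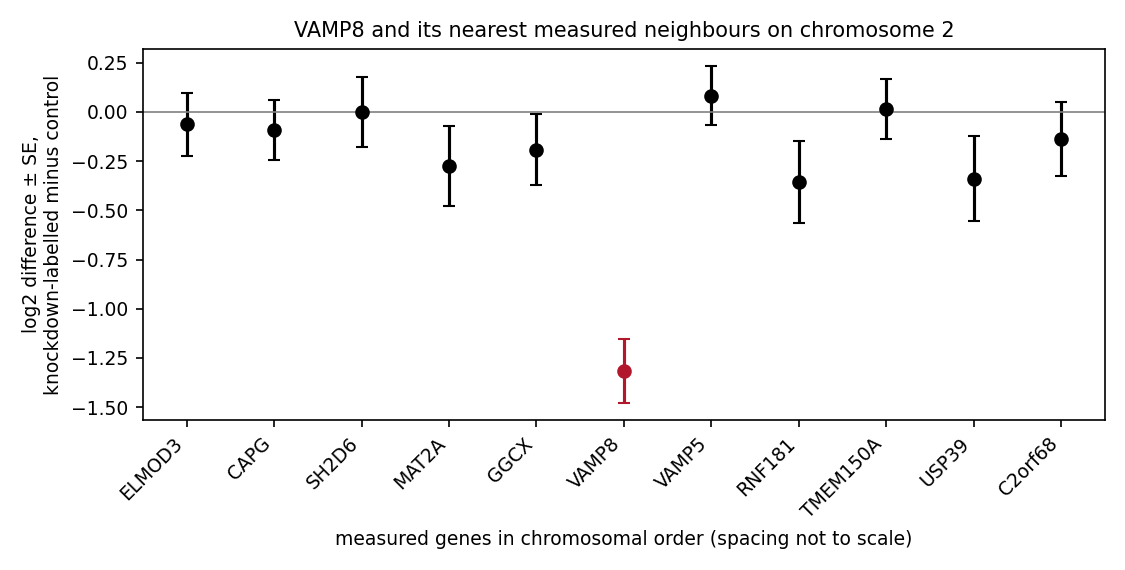
Log2 difference between knockdown-labelled and control arrays (y axis, ± SE from limma) for VAMP8 (red) and the 5 nearest measured genes on each side (black), in chromosomal order but not to scale. VAMP8 lies at −1.32 and its 10 neighbours between −0.36 and 0.08.

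The remaining VAMP genes, VAMP3, VAMP4 and VAMP7, also read lower without overlap, by less than VAMP8. VAMP3, or cellubrevin, which carries recycling endosomes to the plasma membrane (probe set 7897370), read 5.85, 5.98 and 6.17 in knockdown-labelled replicates 1, 2 and 3, against 6.72, 6.51 and 6.39 in control replicates 1, 2 and 3. The log2 difference was −0.54 ± 0.17 (SE), and 0.22 lay between the nearest arrays of the groups.

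VAMP4, which serves traffic between endosomes and the trans-Golgi network (probe set 7922309), read 2.999, 3.02 and 3.16 in the knockdown-labelled arrays, against 3.82, 3.56 and 3.32 in control arrays. Its log2 difference was −0.51 ± 0.17 (SE). It lies in a dim bin in which the median difference was above 0, at 0.07, so VAMP4 was 0.57 below the genes of like signal, against 0.29 for VAMP3. VAMP7, a tetanus-toxin-insensitive VAMP that serves fusion of late endosomes and lysosomes and the release of lysosomes at the surface, read 5.61, 5.93 and 5.87 in knockdown-labelled replicates 1, 2 and 3, against 6.39, 6.15 and 6.02 in control replicates 1, 2 and 3.

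The log2 difference of VAMP7 was −0.38 ± 0.17 (SE), or 0.13 below the median of its bin, and only 0.09 separated the nearest arrays. VAMP7 had 2 probe sets with identical values on every array, which were counted once. After quantile normalization the log2 differences were −0.32 for VAMP3, −0.57 for VAMP4 and −0.17 for VAMP7, and after cyclic loess −0.28, −0.56 and −0.13. VAMP7 then overlapped between the groups, and VAMP3, VAMP4 and VAMP8 still did not.

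Counting all 10 members, 4 were lower without overlap (VAMP8, VAMP3, VAMP4 and VAMP7), as 9.82% of all genes were, and 1 was higher without overlap (VAMP5), as 7.17% of all genes were. Leaving out both knockdown-labelled replicate 1 and control replicate 1 was decided after the data were seen. Without them, 17.7% of all genes were lower without overlap. The same 4 members had to be among them, because leaving arrays out cannot make separate groups overlap. VAMP3 was then at −0.38, VAMP4 at −0.35 and VAMP7 at −0.18, while VAMP8 was at −1.25.

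Over all 6 arrays the 5 Q-SNARE genes each overlapped between the groups. STX7, the syntaxin of late endosomes, read 3.81, 3.43 and 3.54 in knockdown-labelled replicates 1, 2 and 3, against 4.01, 3.47 and 3.56 in control replicates 1, 2 and 3. Its log2 difference was −0.09 ± 0.19 (SE), and replicate 1 was the highest array in each group. VTI1B, the SNARE that joins STX7 and STX8 in late endosome fusion, read 3.83, 3.001 and 3.61 in knockdown-labelled arrays, against 3.88, 3.27 and 2.88 in control arrays.

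VTI1B thus spread over 0.998 on the log2 scale, with replicate 1 again at the top of each group, and had a log2 difference of 0.13 ± 0.26 (SE). STX8, the syntaxin of the same complex, read 3.996, 4.40 and 4.58 in knockdown-labelled replicates 1, 2 and 3, against 4.93, 4.27 and 4.58 in control replicates 1, 2 and 3. Its log2 difference of −0.27 ± 0.21 (SE) turned to 0.06 when replicate 1 of both groups was left out, the arrays that gave its lowest and its highest value. Without control replicate 2 it was −0.43, and STX8 was then lower without overlap, as 20.4% of all genes were. The nearest arrays of STX8 were almost equal, at 4.576 and 4.583. Over all 6 arrays the groups were separate in none of STX7, VTI1B and STX8, the late endosomal partners of VAMP8.

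The groups also overlapped for the autophagosomal partners. STX17, the syntaxin that is recruited to finished autophagosomes, read 3.69, 3.87 and 4.42 in knockdown-labelled replicates 1, 2 and 3, against 4.44, 4.21 and 4.14 in control replicates 1, 2 and 3, a log2 difference of −0.27 ± 0.20 (SE). Knockdown-labelled replicate 3 reached the control range. SNAP29, which gives helices to the complex of STX17 and VAMP8, read 5.41, 5.58 and 5.86 in knockdown-labelled arrays, against 6.20, 5.69 and 5.81 in control arrays, a log2 difference of −0.28 ± 0.19 (SE). The median of its bin was −0.25, close to that of SNAP29. STX17 and SNAP29 were each at −0.03 with replicate 1 of both groups left out. Without knockdown-labelled replicate 3 STX17 was at −0.48 and SNAP29 at −0.41. Both were then lower without overlap, as 18% of all genes were with that array left out. The overlap of either gene thus rested on that array.

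The order of the arrays recurred among the members. Control replicate 1 was the highest of the 6 arrays for 9 of the 10 members, all but VAMP5, and knockdown-labelled replicate 1 was the lowest for 6. These were also the arrays at the ends of the first principal component of all genes, and the part of that pattern in the members' differences was not tested beyond leaving those arrays out. Over all genes of the brightest bin, the median log2 deviation from the control mean was highest in control replicate 1, at 0.14. It was lowest in knockdown-labelled replicate 1, at −0.45. The share of all genes with the same highest or lowest array was not counted. Without VAMP8, the other 9 members had a mean log2 signal of 4.52, 4.52 and 4.74 in knockdown-labelled replicates 1, 2 and 3, against 5.09, 4.72 and 4.68 in control replicates 1, 2 and 3. The median of their differences was −0.27, and it was −0.17 after quantile normalization, −0.13 after cyclic loess and −0.03 with replicate 1 of both groups left out, beside a median of −0.01 over all genes.

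**Figure D3:**
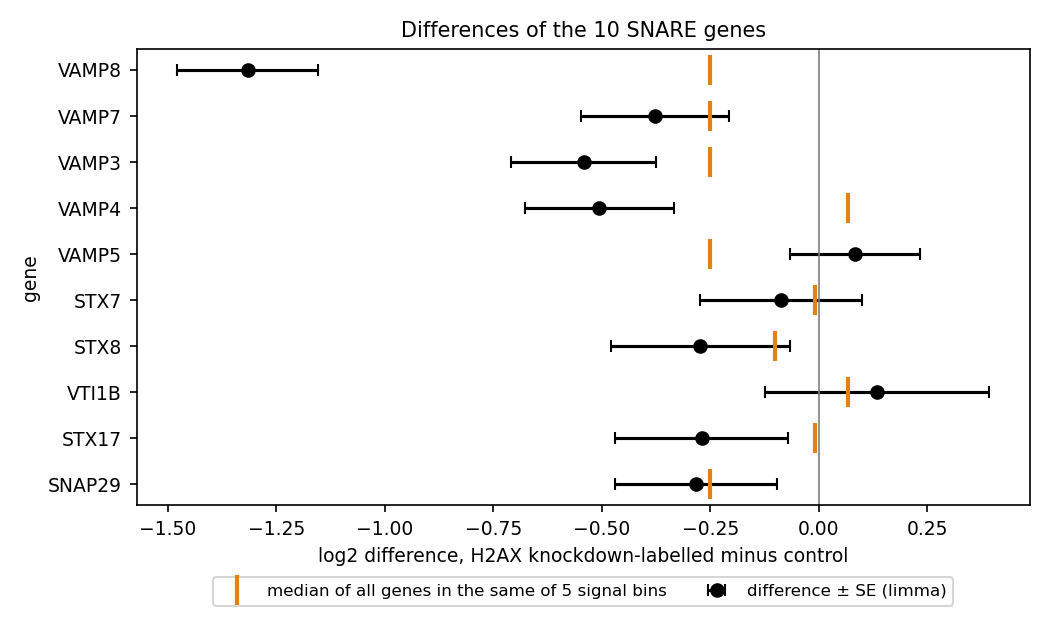
Log2 difference between knockdown-labelled and control arrays (x axis) for each of the 10 SNARE genes; black points are the difference ± SE from limma, and orange ticks are the median difference of all genes in the same of 5 bins by mean signal. VAMP8 stands at −1.32, VAMP3 at −0.54 and VAMP4 at −0.51, while SNAP29 lies beside its tick at −0.25.

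Genes that work with these SNAREs were taken from 6 lists, with 115 genes measured. In limma 0 of them passed the threshold in either direction, where 0.0271% of all genes were lower and 0.00543% higher. At unadjusted p under 0.05, 21 (18.3%) were lower and 0 higher, where 8.38% of all genes were lower and 3.78% higher, and 26 (22.6%) were lower without overlap, as 9.82% of all genes were. The 26 became 16 after quantile normalization (8.94% of all genes) and 15 after cyclic loess (8.14% of all genes). They became 56 without knockdown-labelled replicate 3 (18% of all genes) and 58 without control replicate 2 (20.4% of all genes). This count cannot fall when arrays are left out, because separate groups stay separate. Of the 115 genes, 94 were below 0, as 51.5% of all genes were, with a median log2 difference of −0.26. The lists are bright: 53 of the 115 lay in the brightest bin, where the median over all genes was −0.25, and the part of brightness was not tested. With the fit limited to genes at or above the median signal, 94 partner genes remained. Of these, 18 (19.1%) were lower at unadjusted p under 0.05 in limma, beside 14.1% of all genes kept. Without overlap 21 of them were lower, beside 16.3% of all genes kept. With replicate 1 of both groups left out, 6 (5.22%) were lower and 0 higher at unadjusted p under 0.05 in limma, where 2.94% of all genes were lower and 1.81% higher, and 31 were lower without overlap beside 17.7% of all genes. The 21 lower genes became 12 after quantile normalization, where 5.58% of all genes were lower, and 11 after cyclic loess, where 5.23% were. They became 9 without control replicate 1 (3.34% of all genes), 13 without knockdown-labelled replicate 1 (5.33%), and 35 without either knockdown-labelled replicate 3 (10.9%) or control replicate 2 (10.5%).

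Among 25 other SNARE genes, 15 were below 0 with a median log2 difference of −0.14, with 3 lower and 0 higher at unadjusted p under 0.05. For this and the lists below, the shares over all genes at that level were 8.38% lower and 3.78% higher. Taking for each gene the median difference of its bin, the median over a list was −0.10, but −0.25 for the adaptors and the lysosome genes. SNAP23, the SNAP-family SNARE that partners VAMP8 in granule release, read 4.59, 5.02 and 5.30 in knockdown-labelled arrays, against 5.67, 5.30 and 5.64 in control arrays, a log2 difference of −0.56 ± 0.20 (SE, limma adjusted p = 0.327). Its groups overlapped narrowly. SNAP25, the neuronal relative of SNAP23, read 5.37 to 5.81 in knockdown-labelled arrays, against 6.02 to 6.24 in control arrays, with no overlap, a log2 difference of −0.49 ± 0.17 (SE) and a limma adjusted p of 0.316.

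Proteins that assemble and take apart SNARE bundles (15 genes, the Sec1/Munc18 family, NSF and its adaptors) had a median log2 difference of −0.28, with 2 lower and 0 higher at unadjusted p under 0.05. VPS45, the Sec1/Munc18 protein of endosomes, was at −0.60 ± 0.20 (SE, limma adjusted p = 0.314), and its groups overlapped. STXBP3, a Sec1/Munc18 protein of surface syntaxins, was at −0.47 ± 0.23 (SE, limma adjusted p = 0.426) and overlapped as well. Tethers and Rab GTPases, which hold membranes together before fusion (22 genes), had a median of −0.23, with 2 lower and 0 higher at unadjusted p under 0.05. The largest differences there were those of EEA1, the early endosome tether, at −0.60 ± 0.19 (SE, limma adjusted p = 0.304), and of RAB5A, the Rab GTPase that recruits it, at −0.53 ± 0.19 (SE, limma adjusted p = 0.338).

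Adaptors that sort SNAREs into vesicles (9 genes) were all below 0 with a median log2 difference of −0.36, with 2 lower and 0 higher at unadjusted p under 0.05. CLINT1, also called epsinR, the adaptor that binds VTI1B, read 6.20, 6.51 and 6.52 in knockdown-labelled arrays, against 7.16, 6.73 and 6.88 in control arrays, a difference of −0.52 ± 0.18 (SE, limma adjusted p = 0.314). PICALM, the clathrin adaptor that binds VAMP8, VAMP3 and VAMP2, read 6.20, 6.40 and 6.82 in knockdown-labelled arrays, against 7.09, 6.83 and 6.91 in control arrays, a difference of −0.47 ± 0.19 (SE, limma adjusted p = 0.365). The groups overlapped in neither gene, although the nearest arrays of PICALM were almost equal.

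Autophagosome genes (17 measured) had a median log2 difference of −0.33, with 5 lower and 0 higher at unadjusted p under 0.05. GABARAPL2, an ATG8-family protein of the autophagosome membrane, was at −0.62 ± 0.18 (SE, limma adjusted p = 0.279), and ATG3, the enzyme that joins ATG8 proteins to lipid, at −0.56 ± 0.20 (SE, limma adjusted p = 0.326). Lysosome genes (27 measured, 25 below 0) had a median of −0.29, with 7 lower and 0 higher at unadjusted p under 0.05. ATP6AP2, an accessory protein of the proton pump, read 7.42, 7.19 and 7.48 in knockdown-labelled arrays, against 8.25, 7.98 and 7.92 in control arrays, a difference of −0.69 ± 0.17 (SE, limma adjusted p = 0.224). The galactosidase GLA was at −0.66 ± 0.18 (SE, limma adjusted p = 0.273).

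**Figure D4:**
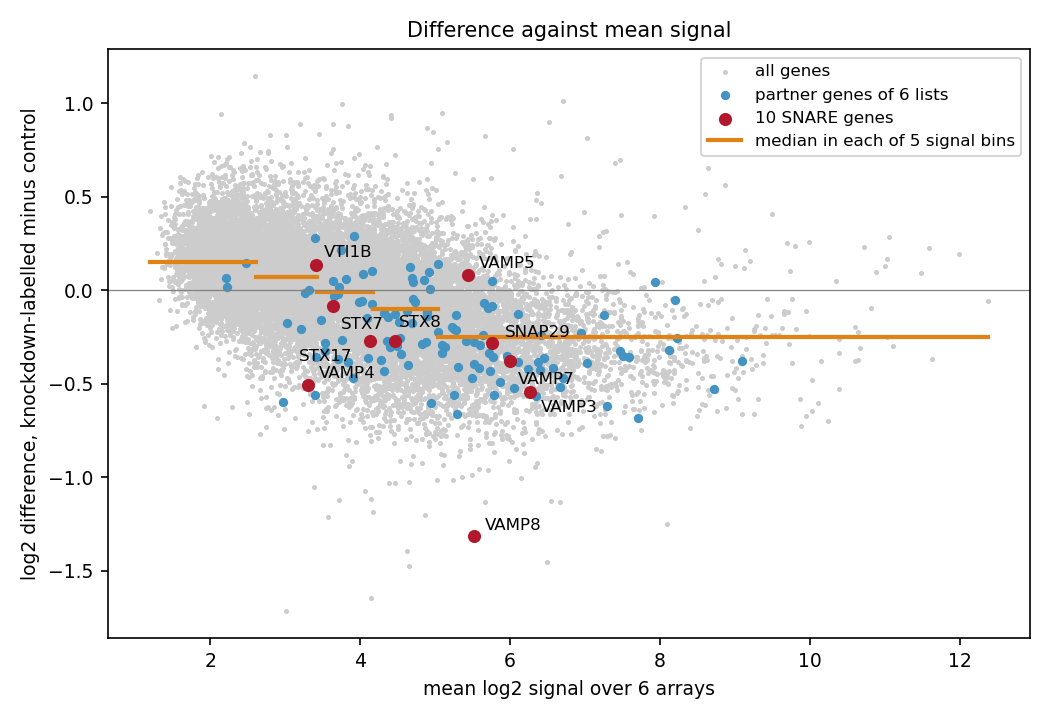
Log2 difference between knockdown-labelled and control arrays (y axis) against mean log2 signal over the 6 arrays (x axis) for all 18417 genes (grey), 115 partner genes (blue) and the 10 SNARE genes (red, named); orange lines are medians in 5 bins by mean signal. The medians fall with signal, to −0.25 in the brightest bin, and VAMP8 lies at the lower edge of the cloud.

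Markers of other cell types were read beside VAMP8, which blood cells also express. Leukocyte markers (10 measured) had a mean log2 signal of 3.48 to 3.54 in knockdown-labelled and 3.50 to 3.62 in control arrays. PTPRC, the common leukocyte antigen, read 1.94 to 2.45 in knockdown-labelled and 1.95 to 2.26 in control arrays, and CD68, which is also a lysosomal protein, had a log2 difference of −0.46. Of the 10 leukocyte markers 1 was lower and 0 higher at unadjusted p under 0.05. Fibroblast markers (9 measured, all above 0) ran from 3.13 to 3.47 in knockdown-labelled and from 2.93 to 3.08 in control arrays, with 1 of 9 higher and 0 lower at unadjusted p under 0.05. Their median log2 difference was 0.23, where the median of their bins was 0.07. At that unadjusted level 8.38% of all genes were lower and 3.78% higher. Muscle markers, read beside VAMP5, ran from 3.75 to 3.91 in knockdown-labelled and from 3.77 to 3.85 in control arrays. Endothelial markers ran from 3.10 to 3.31 in knockdown-labelled and from 2.995 to 3.24 in control arrays, and epithelial markers from 5.56 to 5.67 in knockdown-labelled and from 5.59 to 5.65 in control arrays. These 3 lists held 0 genes at unadjusted p under 0.05 in limma, and their part in the members' differences was not tested.

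The genes whose pattern was most like that of VAMP8 were sought by Pearson correlation over the 6 arrays, among 2107 genes whose arrays spanned at least 1 on the log2 scale. Among the 5 nearest were CLDND1 (r = 0.995), RNF212 (r = 0.994), CXCL1 (r = 0.988) and VCAM1 (r = 0.983). Each of them read lower under the knockdown label without overlap, and the 6 points behind each r share the difference between the groups. CLDND1, a membrane protein with a claudin domain, read 5.62, 5.62 and 5.71 in knockdown-labelled arrays, against 6.65, 6.39 and 6.46 in control arrays.

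RNF212, a ring-finger protein of meiotic crossing over, read 3.54, 3.37 and 3.37 in knockdown-labelled arrays, against 4.47, 4.34 and 4.23 in control arrays. In CLDND1, RNF212, CXCL1 and VCAM1 control replicate 1 was the highest array, as it was for VAMP8. Among the members, r with VAMP8 over the 6 arrays was 0.92 for VAMP3, 0.90 for VAMP4 and 0.81 for VAMP7, −0.90 for VAMP5 and −0.03 to 0.64 for the Q-SNARE genes. These values carry the difference between the groups. Over the deviations of the same 6 arrays from their group means, r with VAMP8 was 0.54 for VAMP5, opposite in sign to its value over the arrays, and was 0.45 for VAMP3, 0.67 for VAMP4 and 0.33 for VAMP7. It was 0.98 for STX7, 0.86 for VTI1B and 0.21 to 0.57 for STX8, STX17 and SNAP29, so the order of the members was another one within groups.

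**Figure D5:**
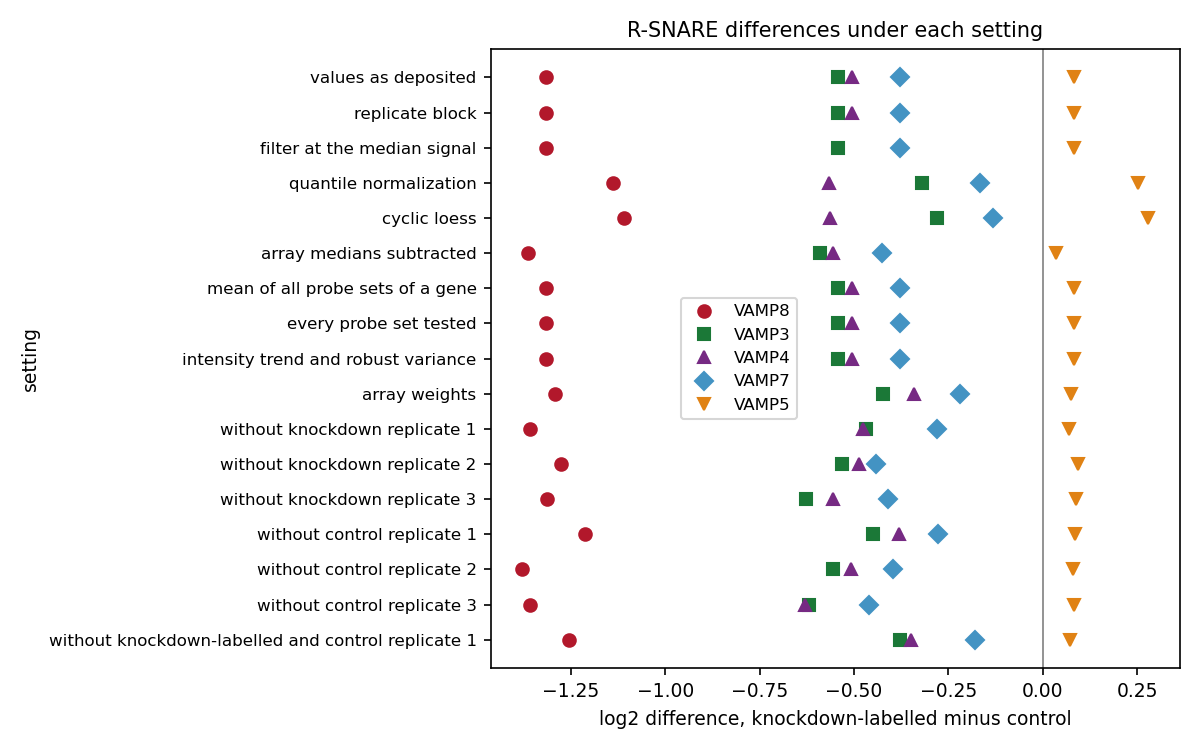
Log2 difference between knockdown-labelled and control arrays (x axis) of the 5 VAMP genes under the values as deposited and each of 16 alternatives (rows); VAMP4 has no point under the signal filter, which removed it. VAMP8 stays between −1.38 and −1.11 and VAMP5 above 0.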

How the data were processed

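The values the authors deposited are log2 signals, with 33297 probe sets on each array. The submitters' processing notes name RMA, and its version is not given in the sources used here. RMA as usually run subtracts background, normalizes between arrays and summarises probes, and differences of dim probe sets come out too small. Probe sets with 1 gene in the platform annotation (19460, of which 19429 matched a current Entrez gene) gave 18417 genes. The values hold no background measure, so no gene was called absent. Per the labels' protocols, biotinylated cRNA was prepared starting with 6 ug of total RNA. If the samples of a group were not separate cultures, the p-values measure only the spread between these samples.

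The test was limma 3.58.1 (R 4.3.3; linear fit, then eBayes), knockdown-labelled minus control, 2-sided, with no covariate. P-values were adjusted by Benjamini-Hochberg over every gene, and the threshold was 0.05. The procedure was tested on simulated data. Figures were drawn with matplotlib 3.10.9. The members and gene lists were chosen with earlier results of these data known. Genes named beside the members were H2AX, the 2 of each partner list with the largest difference, the 5 measured genes on each side of VAMP8, and the 5 most like VAMP8 among genes spanning at least 1. Of these last, 1 is not reported here. The markers named were picked after their values were seen. As alternatives, the fit was repeated with a replicate block, with array weights, with a trend of variance on intensity (robust), and with a filter that kept genes at or above the median signal. The values were also normalized by quantiles, by cyclic loess (5 iterations) or by array medians, the probe sets of a gene were averaged, all probe sets were tested, and each array was left out once. Leaving out replicate 1 of both groups was added after seeing the data.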

Additional observations from a re-analysis of the deposited data

How the results depend on the processing

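VAMP8 kept its direction in all 16 alternatives, from −1.38 to −1.11, and was past the threshold in 7 of them. These fits reuse the arrays on which VAMP8 was selected, so the count describes the settings and is no independent support. The block, the filter, the mean of probe sets, the test of every probe set and the intensity trend could not change the direction of VAMP8. They leave the difference of each member they keep, and of H2AX, as it was. The log2 difference of VAMP8 was −1.14 after quantile normalization and −1.11 after cyclic loess, and −1.38 to −1.21 with 1 array left out. The count of genes past the threshold was 6 in the values as deposited. It was 3 with the replicate number as a block, 3 with the mean of a gene's probe sets, 16 with the filter at the median signal and 191 with array weights. It was 0 after quantile normalization, after cyclic loess, with every probe set tested (33297 in place of 18417) and with replicate 1 of both groups left out. In the 8 settings with 0, 876 to 2296 genes had an unadjusted p under 0.05 in limma, or 3611 probe sets where every probe set was tested. With 1 array left out the count past the threshold ran from 0 to 9. Whether the replicate numbers pair the samples cannot be told from 3 arrays in each group. The deviations from the group means of same-numbered arrays had correlations of −0.31, −0.02 and 0.07, and those of unlike-numbered arrays −0.39 to 0.37. VAMP8 remained past the threshold under the block. None of the other 9 members passed the threshold in any of the 16 alternatives (0 to 3 of them at an unadjusted p under 0.05 in limma). Over all genes tested, 2.94% to 14.1% were lower and 1.32% to 7.54% higher at that level. The filter at the median signal removed VAMP4, STX7 and VTI1B.

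Of 141 values of these 9 members under the alternatives, 127 moved by less than the spread between replicates or not at all, 10 moved by more and 4 turned direction. The 127 include values unchanged by construction, under the block, the filter, the mean of probe sets, the test of every probe set and the intensity trend. With 1 array left out, VTI1B ran from −0.10 (without control replicate 3) to 0.40 and was at −0.04 without knockdown-labelled replicate 1. In the same way STX7 ran from −0.20 to 0.079, the upper end without control replicate 1, and STX8 turned to 0.059 with replicate 1 of both groups left out. With array weights 3 of 115 partner genes passed the threshold, GABARAPL2, GLA and ATP6AP2, where 191 of all 18417 genes did. That setting gave control replicate 3 a weight of 5.03, against 0.41 to 1.22 for the other arrays. In the other 15 alternatives 0 partner genes passed (6 to 35 at an unadjusted p under 0.05 in limma). H2AX stayed above 0, from 0.01 to 0.28. The cause of these changes was not tested.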
